A study of Mus musculus with 3 samples.

Results

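A set of 10 genes known from fat cells was measured in the ovaries of mice that had chemotherapy, some of which then received cells grown from fat: Cfd, Car3, Fabp4, Cd36, Lpl, Angptl4, Agpat2, Lipe, Pparg and Aoc3. They were chosen by name, with results of these arrays known, and were found as every probe that carried the symbol or an older synonym. This gave 19 probes, all under the current symbols, for 10 of the 19459 genes on the array. The ovaries came from C57BL/6 mice in 4 groups: mice with premature ovarian failure (POF) induced by cyclophosphamide, an alkylating drug, that then had adipose-derived stem cells (ADSC, mesenchymal cells grown from fat tissue in culture) injected into both ovaries (ADSC-ovary). Other POF mice had ADSC injected into a vein (ADSC-iv), others had cyclophosphamide alone (POF), and WT mice were untreated. All ovaries were collected 1 week after treatment. The labels give neither age, dose, number of animals per array, nor the donor of the ADSC.

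Fat cells take up fatty acids that lipoprotein lipase frees from lipoproteins in the capillary, carry them inside the cell on binding proteins, build triglyceride from them, and break it down again when energy is short. The nuclear receptor PPARγ switches on much of this programme as a precursor becomes a fat cell, and PPARγ is also found in ovarian granulosa cells. Several of these genes are used outside fat too: macrophages are known to express Fabp4, Cd36, Lpl and Pparg, and capillary endothelium expresses Fabp4 and Cd36.

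Cfd, Car3 and Fabp4 were highest in the ovaries that had received ADSC directly, where Car3 was 3.58-fold and Fabp4 3.31-fold above POF and Cfd was above background in no other group. Cd36 was above WT on all 3 arrays, by 2.45-fold in ADSC-ovary, 2.56-fold in ADSC-iv and 1.67-fold in POF. Lpl, Angptl4, Agpat2 and Pparg were less than 2-fold from WT on every array on their probes above background. Lipe was so in ADSC-iv and POF and was not above background in ADSC-ovary. The probes of Aoc3 disagreed. Adiponectin and leptin, hormones that define fat cells, were not above background on any array, with the adiponectin spot just under the line in ADSC-ovary.

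Each of the 3 arrays carried RNA of 1 treated group labelled with Cy5 and WT RNA labelled with Cy3. There was 1 array per group and the dyes were not exchanged, so every difference here lacks a replicate check and no test was made. Precision is limited by having so few arrays. All ratios are log2 of Cy5 over Cy3 after normalization within the array, so 1 means 2-fold. Between 39.9% and 43.4% of all gene probes were above background in at least 1 channel. A spot counted as above background where it exceeded its local background by more than 2 background SDs. As a guide to technical scatter, several probes of the same gene differed with a median SD of 0.13 to 0.16 over the 6 comparisons, and 48 repeated spots of each of 4 control genes had SDs of 0.07 to 0.19. In whole ovaries, fewer cells of a type and less RNA per cell cannot be told apart.

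The 2 genes that RefSeq's promoter table covers among the 4 that were at least 2-fold above WT on the ADSC-ovary array are Cfd and Cd36, and their promoters are shown so that the pair can be compared. Car3 and Fabp4 had no entry. Each window runs from 250 bases before the start of transcription to 50 bases after it, on the gene's own strand in GRCm38.p6. The Cfd window is chr10:79890603-79890902 on the plus strand and the Cd36 window is chr5:17835847-17836146 on the minus strand. Capitals mark matches, on either strand, to 5 short motifs. These are the TATA box, searched as TATAA, and the CCAAT box under its own letters. The GC box was searched as GGGCGG. The half-site bound by PPARγ and other nuclear receptors was searched as AGGTCA. A core of the sites bound by C/EBP factors was searched as TTGCNNAA.
Cfd: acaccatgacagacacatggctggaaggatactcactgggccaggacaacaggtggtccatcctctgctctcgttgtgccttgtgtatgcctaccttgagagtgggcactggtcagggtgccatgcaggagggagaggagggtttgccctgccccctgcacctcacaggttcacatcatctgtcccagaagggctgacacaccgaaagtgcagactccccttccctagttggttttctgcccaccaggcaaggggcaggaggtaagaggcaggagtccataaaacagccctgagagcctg
Cd36: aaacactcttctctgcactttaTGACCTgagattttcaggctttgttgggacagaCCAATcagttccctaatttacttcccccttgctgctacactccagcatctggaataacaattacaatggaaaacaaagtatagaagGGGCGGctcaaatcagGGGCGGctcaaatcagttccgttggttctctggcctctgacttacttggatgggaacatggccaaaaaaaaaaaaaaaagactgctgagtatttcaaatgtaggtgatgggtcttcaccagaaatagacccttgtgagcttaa
The Cfd window held no match to any of the 5 motifs. The Cd36 window held the CCAAT box at bases 56 to 60 and the GC box at bases 142 to 147 and 158 to 163. It held the nuclear receptor half-site on the reverse strand at bases 23 to 28. None of these matches overlapped another. Among all 32851 promoters in the table, 24.9% held the TATA box, 37.4% the CCAAT box and 35.7% the GC box. The nuclear receptor half-site stood in 16.3% and the C/EBP core in 10.8%, so each of these short motifs is common. Of the 10 genes, Agpat2, Pparg and Lipe also had entries. The nuclear receptor half-site was matched in the windows of 2 of the 3 Pparg starts, and the C/EBP core in that of the other one.

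Cfd encodes adipsin, also called complement factor D, a serine protease that fat cells secrete and that cuts factor B to start the alternative complement pathway. Its single probe gave a Cy5 signal of 750 intensity units over local background on the ADSC-ovary array, against 114 in ADSC-iv and 105 for POF. The WT channel gave 16, 37 and 24 units on the ADSC-ovary, ADSC-iv and POF arrays. Only the ADSC-ovary Cy5 spot was above background, at 6.04 background SDs, and all 5 other readings lay at 1.49 SDs or less. The ratio of 2.47 on that array therefore rests on an unmeasured WT level, and only a bound can be given. For the bound the dim side was set at the highest of its own normalized signal, the lowest signal above background on that array, and the signal that a spot would have at its own line of 2 background SDs. That last level, chosen after the data were seen, is the median of the 200 gene probes nearest to the line. Cfd was at least 3.23-fold higher in ADSC-ovary than in WT. Set the same way, it was at least 3.33-fold higher in ADSC-ovary than in POF. Against ADSC-iv it was at least 3.02-fold higher in ADSC-ovary. These bounds use the signal of single channels and are open to dye bias where they are set against WT. In ADSC-iv and in POF, Cfd was not well above background, and no fold between those groups or against WT is given.

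Car3 encodes carbonic anhydrase 3, a cytosolic enzyme that is abundant in fat and in slow skeletal muscle. The brighter of its 2 probes gave Cy5 signals of 1845 units in ADSC-ovary, 819 in ADSC-iv and 389 in POF. The WT channel beside them gave 536, 719 and 554 units on the ADSC-ovary, ADSC-iv and POF arrays, all above background. ADSC-ovary was thus the only group with a Cy5 signal far above its WT partner, and POF was the only one below its own. The log2 ratios to WT were 1.59, 0.15 and -0.64 on the ADSC-ovary, ADSC-iv and POF arrays for that probe. They were 1.38, 0.25 and -0.07 for the dimmer one, which was not above background in WT on the ADSC-ovary array. Both probes ran in the same order over the arrays, and their size differed: ADSC-ovary minus POF was 2.23 on the brighter and 1.45 on the dimmer probe. Averaged over both, Car3 was 1.84 log2 units (3.58-fold) higher in ADSC-ovary than in POF, and 8 of 9077 measured genes had a larger positive difference. In ADSC-iv, Car3 was 0.56 above POF. It was 1.28 (2.43-fold) higher in ADSC-ovary than in ADSC-iv.

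Fabp4 encodes the fatty acid binding protein of adipocytes and macrophages, also called aP2, which carries fatty acids in the cytosol. Its single probe gave Cy5 signals of 1058 units in ADSC-ovary, 749 in ADSC-iv and 327 in POF. The WT channel gave 302, 402 and 329 units on the ADSC-ovary, ADSC-iv and POF arrays, and all 6 readings were above background. The POF ovary matched its WT partner within 0.24 log2 units, while both transplanted groups were above theirs. The ratios to WT were 1.49 in ADSC-ovary, 0.72 in ADSC-iv and -0.24 in POF. Fabp4 was 1.73 log2 units (3.31-fold) higher in ADSC-ovary than in POF, a difference exceeded by 10 of 9077 genes. It was 0.96 higher in ADSC-iv than in POF, just under 2-fold, a difference exceeded by 56 of 9168 genes. That value reached 2-fold in 3 of 10 alternative ways of processing the arrays. Fabp4 was 0.77 higher in ADSC-ovary than in ADSC-iv.

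Cd36 encodes a fatty acid translocase and scavenger receptor at the cell surface of fat cells, macrophages and capillary endothelium. Its single probe gave Cy5 signals of 1882 units in ADSC-ovary, 1361 in ADSC-iv and 905 in POF. The WT channel gave 704, 452 and 397 units on the ADSC-ovary, ADSC-iv and POF arrays, with all readings above background. The treated ovary was brighter than its WT partner on every array, POF included. The ratios to WT were 1.29 in ADSC-ovary, 1.35 in ADSC-iv and 0.74 in POF. Cd36 was 0.55 higher in ADSC-ovary than in POF. It was 0.61 above POF in ADSC-iv, and ADSC-ovary minus ADSC-iv was -0.06, within the scatter between probes.

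**Figure D1:**
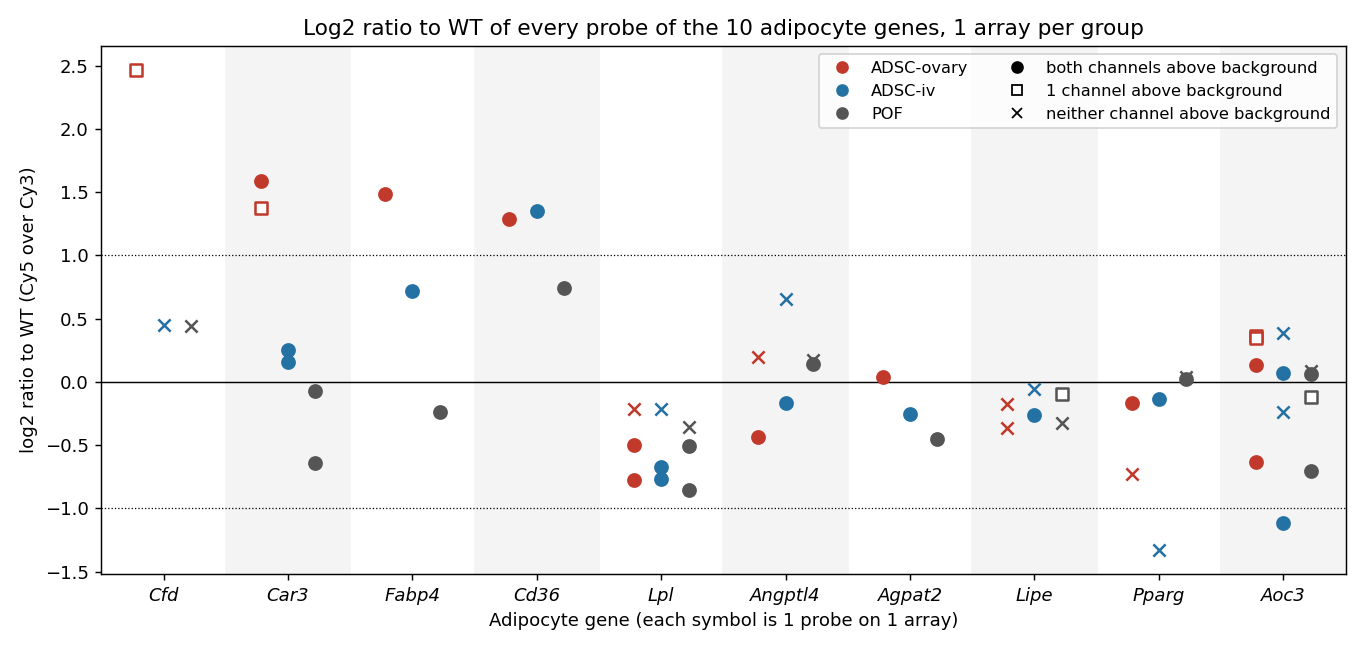
Log2 ratio to WT (y axis) of each probe of the 10 adipocyte genes (x axis) on the ADSC-ovary, ADSC-iv and POF arrays, with 1 array per group and no error bars; filled circles have both channels above background, open squares 1 channel and crosses neither, and dotted lines mark 2-fold. The ADSC-ovary values of Cfd (2.47), Car3 (1.59 and 1.38), Fabp4 (1.49) and Cd36 (1.29) lie above the upper dotted line, where Cd36 is the only gene with an ADSC-iv value (1.35) and no gene has a POF value.

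Lpl encodes lipoprotein lipase, which frees fatty acids from circulating triglyceride. Its brightest probe gave Cy5 signals of 4834 units in ADSC-ovary, 4848 in ADSC-iv and 4926 in POF. The WT channel of that probe gave 5908, 6903 and 5310 units on the ADSC-ovary, ADSC-iv and POF arrays. All 3 treated ovaries lay below WT by similar amounts. The 2 probes above background had ratios of -0.50 and -0.78 in ADSC-ovary, -0.68 and -0.77 in ADSC-iv, and -0.50 and -0.85 in POF. The remaining probe was not above background in any channel. Averaged over all 3 probes the ratios were -0.50 in ADSC-ovary, -0.55 in ADSC-iv and -0.57 in POF. Lpl in ADSC-ovary minus POF was 0.08 and in ADSC-iv minus POF 0.02, both smaller than the scatter between probes of a gene.

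Angptl4 encodes angiopoietin-like 4, a secreted inhibitor of lipoprotein lipase whose gene is a target of PPAR receptors. Its bright probe gave Cy5 signals of 3911 units in ADSC-ovary, 4058 in ADSC-iv and 6121 in POF. The WT channel gave 4730, 4180 and 4176 units on the ADSC-ovary, ADSC-iv and POF arrays. POF was thus the only group above its WT partner before normalization. The ratios of the bright probe were -0.43 in ADSC-ovary, -0.16 in ADSC-iv and 0.14 in POF, so ADSC-ovary minus POF was -0.57 and ADSC-iv minus POF was -0.30. The other Angptl4 probe was not above background in any channel. Averaging it in gives -0.27 for ADSC-ovary minus POF and 0.09 for ADSC-iv minus POF, the second with the other sign.

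Agpat2 encodes an acyltransferase of triglyceride synthesis that is needed for fat storage. Its single probe gave Cy5 signals of 679 units in ADSC-ovary, 665 in ADSC-iv and 696 in POF. The WT channel gave 683, 813 and 820 units on the ADSC-ovary, ADSC-iv and POF arrays. The treated signals were nearly level, and the WT channel was the one that varied. The ratios were 0.04 in ADSC-ovary, -0.26 in ADSC-iv and -0.45 in POF. Agpat2 in ADSC-ovary minus POF was 0.49, of which the treated channel gave -0.02 and the WT channel -0.51.

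Lipe encodes hormone-sensitive lipase, which breaks down stored fat and also frees cholesterol from its esters in steroid-making cells. Both of its probes were dim, and the dimmer one was not above background in any channel. The brighter one gave Cy5 signals of 124 units in ADSC-ovary, 175 in ADSC-iv and 179 in POF, of which the ADSC-iv and POF readings were above background. Its ratios to WT were -0.17 in ADSC-ovary, -0.26 in ADSC-iv and -0.09 in POF, and ADSC-iv minus POF was -0.17. Lipe was not well above background in ADSC-ovary in either channel and was left out of comparisons with that group.

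Pparg encodes PPARγ itself. Its bright probe gave Cy5 signals of 3696 units in ADSC-ovary, 4200 in ADSC-iv and 4348 in POF. The WT channel gave 3775, 4222 and 3303 units on the ADSC-ovary, ADSC-iv and POF arrays. This probe had ratios of -0.16 in ADSC-ovary, -0.13 in ADSC-iv and 0.02 in POF, so all 3 treated ovaries were within 0.16 of WT. The second Pparg probe was not above background in any of its 6 readings, yet its ratios spanned -0.73 in ADSC-ovary, -1.33 in ADSC-iv and 0.04 in POF. The average of both probes, -0.76 for ADSC-iv minus POF, rests on that dim probe, since the bright one gave -0.15. For ADSC-ovary minus POF the average was -0.48 and the bright probe gave -0.18.

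Aoc3 encodes a copper-dependent amine oxidase of fat cells, smooth muscle and endothelium, also called vascular adhesion protein 1. Its 4 probes disagreed. The brightest had ratios of -0.63 in ADSC-ovary, -1.12 in ADSC-iv and -0.71 in POF, while the next had 0.13, 0.07 and 0.06 in ADSC-ovary, ADSC-iv and POF. The other pair was dim, with no WT reading above background. The brightest probe gave Cy5 signals of 4798 units in ADSC-ovary, 4904 in ADSC-iv and 5810 in POF, beside WT signals of 6415, 9333 and 7089 units on the ADSC-ovary, ADSC-iv and POF arrays. The low ADSC-iv ratio thus stood beside the highest of the 3 WT readings. Averaged over the probes, Aoc3 was 0.05 in ADSC-ovary, -0.22 in ADSC-iv and -0.17 in POF, values that hide this disagreement.

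**Figure D2:**
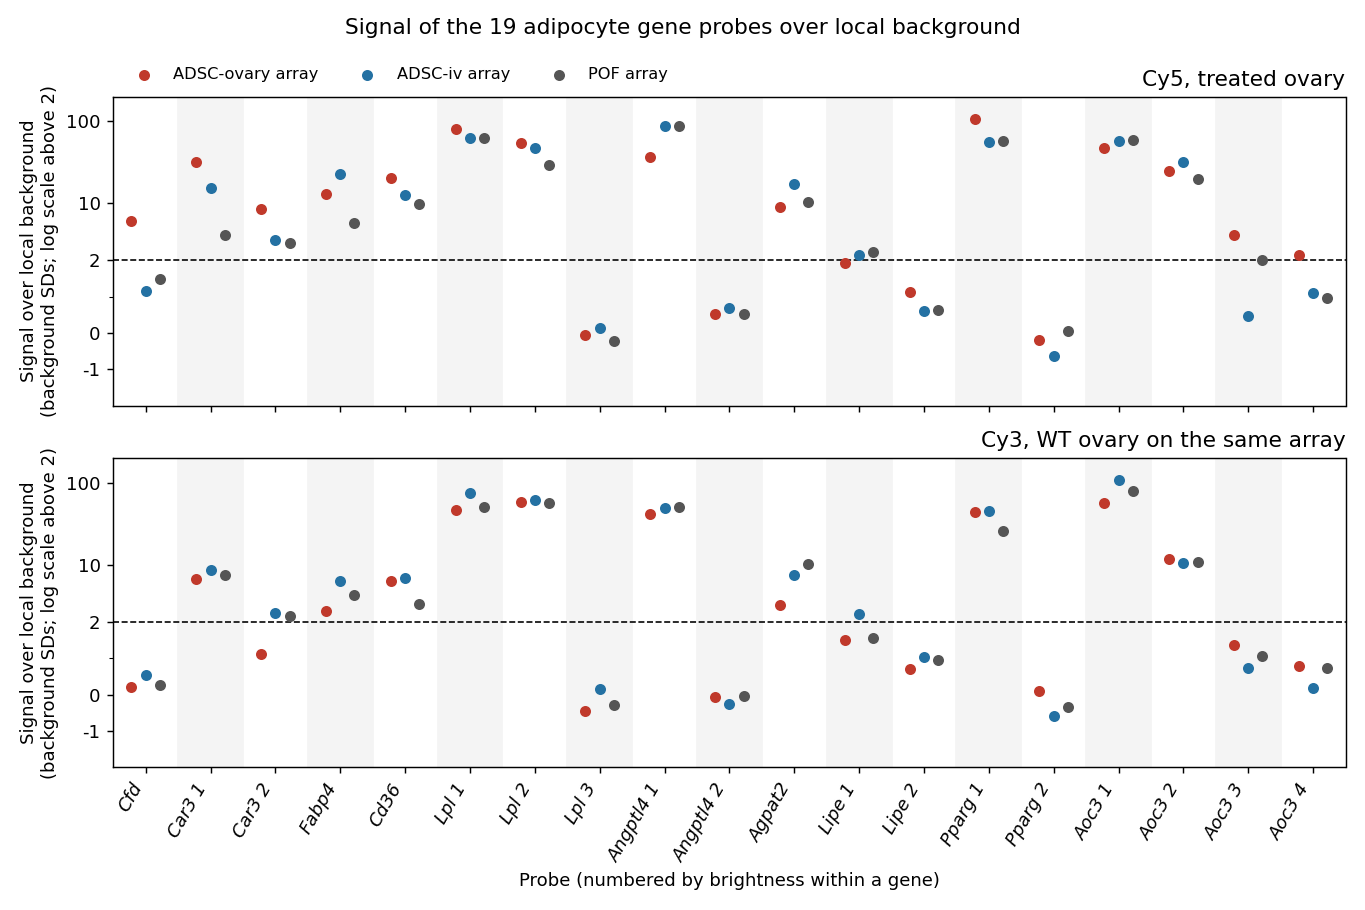
Signal of each of the 19 probes over its local background, in background SDs (y axis, linear up to 2 and logarithmic above), in the Cy5 channel of the treated ovary (upper panel) and the Cy3 channel of WT (lower panel) on the ADSC-ovary, ADSC-iv and POF arrays; the dashed line marks the 2 SDs that define above background. Cfd crosses the line only in Cy5 of the ADSC-ovary array (6.04 SDs). Lpl 3, Angptl4 2, Pparg 2 and Lipe 2 stay under it in all 6 readings.

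Of the 19 probes, 15 were above background in at least 1 channel of at least 1 array, and 10 were so in both channels of all arrays. By gene, 8 of 10 were above background in both channels of every array, the exceptions being Cfd and Lipe. A gene was measured in a comparison if every array it used had at least 1 channel above background for it. A gene dim in WT was thus measured against WT only where the treated channel was bright, as Cfd was in ADSC-ovary, and this favours values above 0.

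Against WT, the 9 measured genes had a median of 0.05 in ADSC-ovary, beside 0.00 over all measured genes. Of these, 4 were at least 2-fold higher (Cfd, Fabp4, Car3 and Cd36), where 2.68% of all measured genes were, and 0 were at least 2-fold lower, where 0.352% were. In ADSC-iv the median against WT was -0.16 over 9 genes. Only Cd36 was past 2-fold upward, where 2.0% of all genes were, and 0 of the 9 were 2-fold lower, where 0.551% were. In POF the median against WT was -0.21 over 9 genes, from -0.57 (Lpl) to 0.74 (Cd36), with 0 at least 2-fold higher or lower, where 1.16% and 0.928% of all genes were. These ratios hold any effect of the dye on a single gene, which cancels in differences between arrays. All 3 comparisons share WT as their partner.

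Between treated groups, the 8 measured genes had a median of 0.36 in ADSC-ovary minus POF, beside 0.00 over all 9077 measured genes. That median lies midway between Aoc3 (0.22), whose probes disagreed in their ratios, and Agpat2 (0.49), whose difference lay in the WT channel. Car3 and Fabp4 were at least 2-fold higher, where 0.65% of all genes were, and 0 of the 8 were at least 2-fold lower, where 0.154% were. In ADSC-iv minus POF the median was 0.09 over 9 genes, with 0 at least 2-fold higher or lower, where 0.513% and 0.349% of all genes were. That median is the averaged value of Angptl4, whose bright probe alone gave -0.30. With the brightest probe of each gene the median was negative. In ADSC-ovary minus ADSC-iv the median was 0.28 over 8 genes. It lies midway between the averaged values of Aoc3 and Pparg, and the bright Pparg probe alone gave -0.03. Car3 was at least 2-fold higher, where 0.634% of all genes were, and 0 were 2-fold lower, where 0.328% were. The genes were chosen with these arrays in view, so the counts describe them and support nothing further. The differences of both ADSC groups from POF share the POF array.

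A difference between arrays can come from the treated RNA or from the WT RNA beside it, and the labels do not say whether all arrays carried the same WT RNA. Over 7893 genes, the WT channel differed between the ADSC-ovary and POF arrays with an SD of 0.26 log2 units, against 0.41 in the treated channel. Car3 gave 1.52 in the treated channel and -0.32 in the WT channel, and Fabp4 gave 1.41 and -0.32. For Car3 and Fabp4 most of the difference lay in the treated RNA. Cfd has only the bounds above, since its POF spot and its WT spots were not above background. For Cd36 the treated channel differed by 0.94 and the WT channel by 0.39 in the same direction, which lowers the difference of its ratios. Between ADSC-ovary and ADSC-iv, Cd36 differed by 0.51 in the treated channel and 0.57 in the WT channel, so the treated signal alone was higher on the ADSC-ovary array and the ratios were level. Fabp4 in ADSC-iv minus POF gave 0.87 in the treated channel and -0.09 in the WT channel. Angptl4 was lower than POF in the treated channel by both routes, with -0.72 in ADSC-ovary and -0.69 in ADSC-iv. The WT channel moved the same way, by -0.14 on the ADSC-ovary array and -0.38 on that of ADSC-iv, which leaves the -0.57 and -0.30 of its bright probe's ratios.

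**Figure D3:**
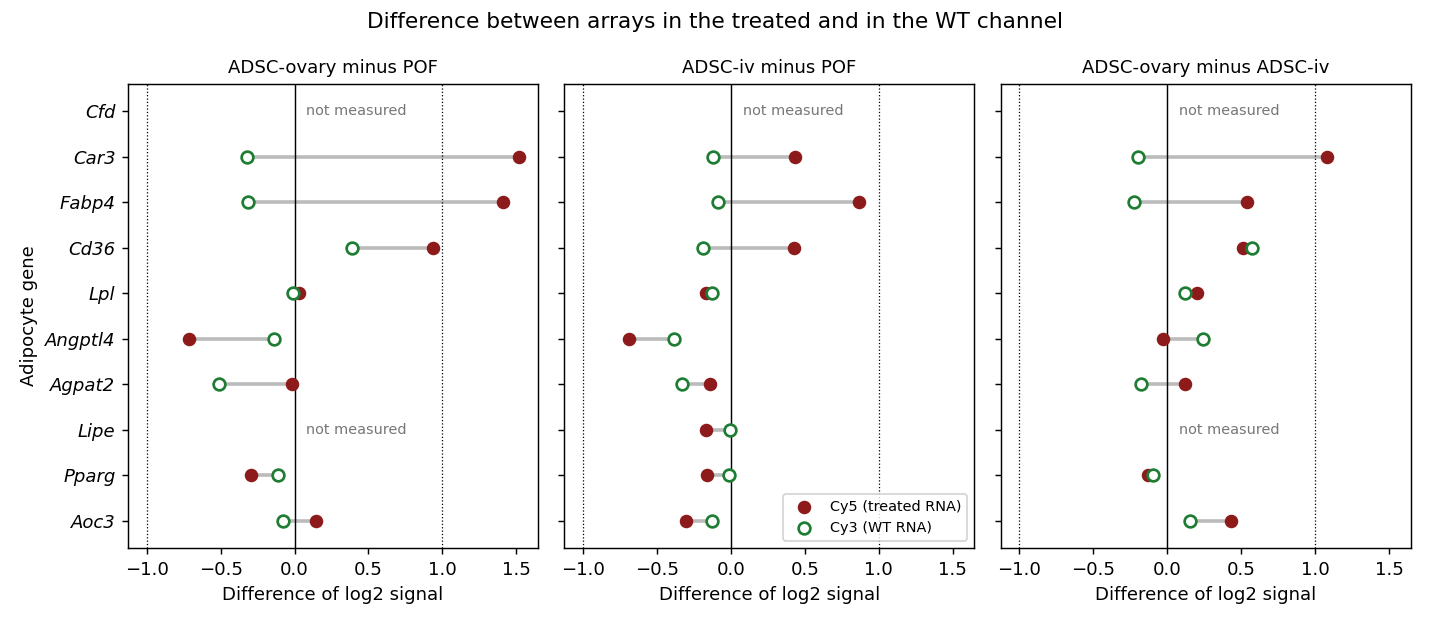
Difference between arrays of the normalized log2 signal (x axis) of each adipocyte gene (y axis) in the treated channel (filled circles, Cy5) and in the WT channel (open circles, Cy3), averaged over probes above background, for ADSC-ovary minus POF, ADSC-iv minus POF and ADSC-ovary minus ADSC-iv; 1 array per group, no error bars, and genes not measured on both arrays of a panel (Cfd, and Lipe where ADSC-ovary is compared) are marked so. In the left panel Car3 (1.52) and Fabp4 (1.41) lie beyond 1 in the treated channel while their WT values are both -0.32, and Agpat2 moves in the WT channel (-0.51).

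The genes with the most similar patterns were sought by the distance between their 3 ratios to WT. No likeness is given for Cfd, whose ratios in ADSC-iv and POF come from spots not above background. The gene nearest to Car3, among 7383, was Fabp4 at a distance of 0.53, followed by Xlr5c, the complement inhibitor Serping1, the potassium channel subunit Kcne3 and the G protein subunit Gng2. The search covered genes above background in both channels of every array. Each likeness rests on 3 ratios.

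Of the defining genes of white fat cells that were read, Plin1 was above background and Adipoq, Lep and Cidec were not. Adipoq, which encodes the fat hormone adiponectin, had Cy5 signals over background of 293 units in ADSC-ovary, -9 in ADSC-iv and 85.5 in POF. In the WT channel it read 5.5, -106 and 33 units on the ADSC-ovary, ADSC-iv and POF arrays. The ADSC-ovary reading was the highest, at 1.96 background SDs, just under the line, and none of the 6 was above background. Lep encodes leptin and Cidec a lipid droplet protein. Resistin (Retn) was not analysed here. Plin1, which encodes the protein coat of fat cell lipid droplets, had ratios of -0.32 in ADSC-ovary, -0.54 in ADSC-iv and 0.18 in POF. Plin4, another droplet protein of fat cells, was added after its value was seen. With bounds set as for Cfd, it was at least 1.49-fold higher in ADSC-ovary than in POF and 1.38-fold higher than in WT. Its ratio to WT was -0.35 in ADSC-iv. Of 21 white adipocyte genes on the array besides the 10, 9 were above background in some channel. Over the 6 measured in ADSC-ovary minus POF the median was -0.19, with 2 above 0 and 4 below 0, and none at 2-fold. Of the brown fat genes, 2 of 10 were measured (Cox7a1 0.53 and Zic1 -0.06 in ADSC-ovary minus POF).

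The pathways around the 10 genes also showed both directions. Of 7 measured adipogenic transcription factors the median was -0.10 in ADSC-ovary minus POF, with Klf4 at 0.44 and Klf15 at -0.34. Among 10 genes of lipolysis and the lipid droplet it was -0.02, from the fat cell lipase gene Pnpla2 (-0.60) to the lysosomal lipase gene Lipa (0.69), and Pnpla2 was also lower in ADSC-iv minus POF (-0.65). Of 18 genes of triglyceride and fatty acid synthesis, 13 were below 0 in ADSC-ovary minus POF (median -0.18) and 15 in ADSC-iv minus POF (median -0.35). Over all measured genes, 50.2% were above 0 in ADSC-ovary minus POF and 49.4% in ADSC-iv minus POF. The desaturase gene Fads2 was the 1 gene of that list past 2-fold, at -1.11 in ADSC-iv minus POF, where 0.349% of all genes were at least 2-fold lower. Of 15 PPAR targets in fatty acid oxidation, 13 were below 0 in ADSC-ovary minus POF (median -0.25) and 14 in ADSC-iv minus POF (median -0.28). Acadvl and Acaa2, which encode enzymes of mitochondrial fatty acid oxidation, were at -0.66 and -0.28 in ADSC-ovary minus POF and at -0.47 and -0.68 in ADSC-iv minus POF. Over 18 genes of fatty acid uptake and binding the median of ADSC-ovary minus POF was 0.09, with Apoc2, the activator of lipoprotein lipase, at 0.71. Among relatives of Car3 and Aoc3, 4 measured carbonic anhydrases had a median of -0.19 and 5 amine oxidases one of 0.03 in ADSC-ovary minus POF.

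The alternative complement pathway, to which Cfd belongs, had a median of 0.79 in ADSC-ovary minus POF over 5 other genes, with all 5 above 0, as 50.2% of all measured genes were. C3 (1.62), the central complement protein, and Cfb (1.11), which encodes the factor B that adipsin cuts, were past 2-fold upward, where 0.65% of all genes were. In ADSC-iv minus POF the median was 0.27, with C3 at 0.27 and Cfb at 0.04.

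Markers of other cells were read the same way. Of 18 macrophage genes, 17 were above background in some channel. The normalized signal, summed over probes above background in some channel, was 88615 units for Cy5 in ADSC-ovary, 73329 in ADSC-iv and 55167 in POF, against 23854 to 30008 in the WT channels. All 13 measured macrophage genes were above 0 in ADSC-ovary minus POF (median 0.74), led by Lyz2 (1.08) and Fcer1g (1.01), and 11 of 14 were so in ADSC-iv minus POF (median 0.39), led by Gpnmb (1.71), beside 50.2% and 49.4% of all measured genes above 0 in ADSC-ovary minus POF and in ADSC-iv minus POF. Genes used as markers of mesenchymal stem cells and preadipocytes, of which 10 of 13 were above background, summed to 46575 units in ADSC-ovary, 37824 in ADSC-iv and 41411 in POF, against 29451 to 33391 in WT. The 10 measured ones had a median of -0.04 in ADSC-ovary minus POF, with Ly6a (1.14) and Thy1 (0.81) above the rest. Of 15 endothelial genes, 13 were above background. They summed to 20491 units in ADSC-ovary, 21497 in ADSC-iv and 20865 in POF, against 24043 to 25292 in WT, with a median of -0.10 in ADSC-ovary minus POF. Of 13 skeletal muscle genes, 3 were above background in some channel, which summed to 1279 units in ADSC-ovary, 1264 in ADSC-iv and 1019 in POF, against 719 to 850 in WT. Of 11 erythroid genes, which mark blood in the sample, 5 were above background, summing to 66811 units in ADSC-ovary, 42751 in ADSC-iv and 60906 in POF, against 19902 to 27968 in WT. The macrophage, mesenchymal, skeletal muscle and erythroid sums were each highest in ADSC-ovary, that of skeletal muscle by little (1279 against 1264 in ADSC-iv). The sum of the white adipocyte genes besides the 10 was lowest there. It was 10650 units in ADSC-ovary, 13081 in ADSC-iv and 12455 in POF, against 11588 to 13430 in WT. The 10 genes themselves summed to 30109 units in ADSC-ovary, 25986 in ADSC-iv and 30066 in POF, against 34237 to 38008 in WT. The granulosa sum was also lowest in ADSC-ovary, at 66889 units, beside 92306 in ADSC-iv, 98954 in POF and 151544 to 160541 in WT. The median of the erythroid genes was -0.06 in ADSC-ovary minus POF and -0.96 in ADSC-iv minus POF. Luteal and steroidogenic genes had a median of -0.05 and granulosa genes one of -0.38 in ADSC-ovary minus POF. The part of any of these cell types in the Cfd, Car3, Fabp4 and Cd36 values was not tested.

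**Figure D4:**
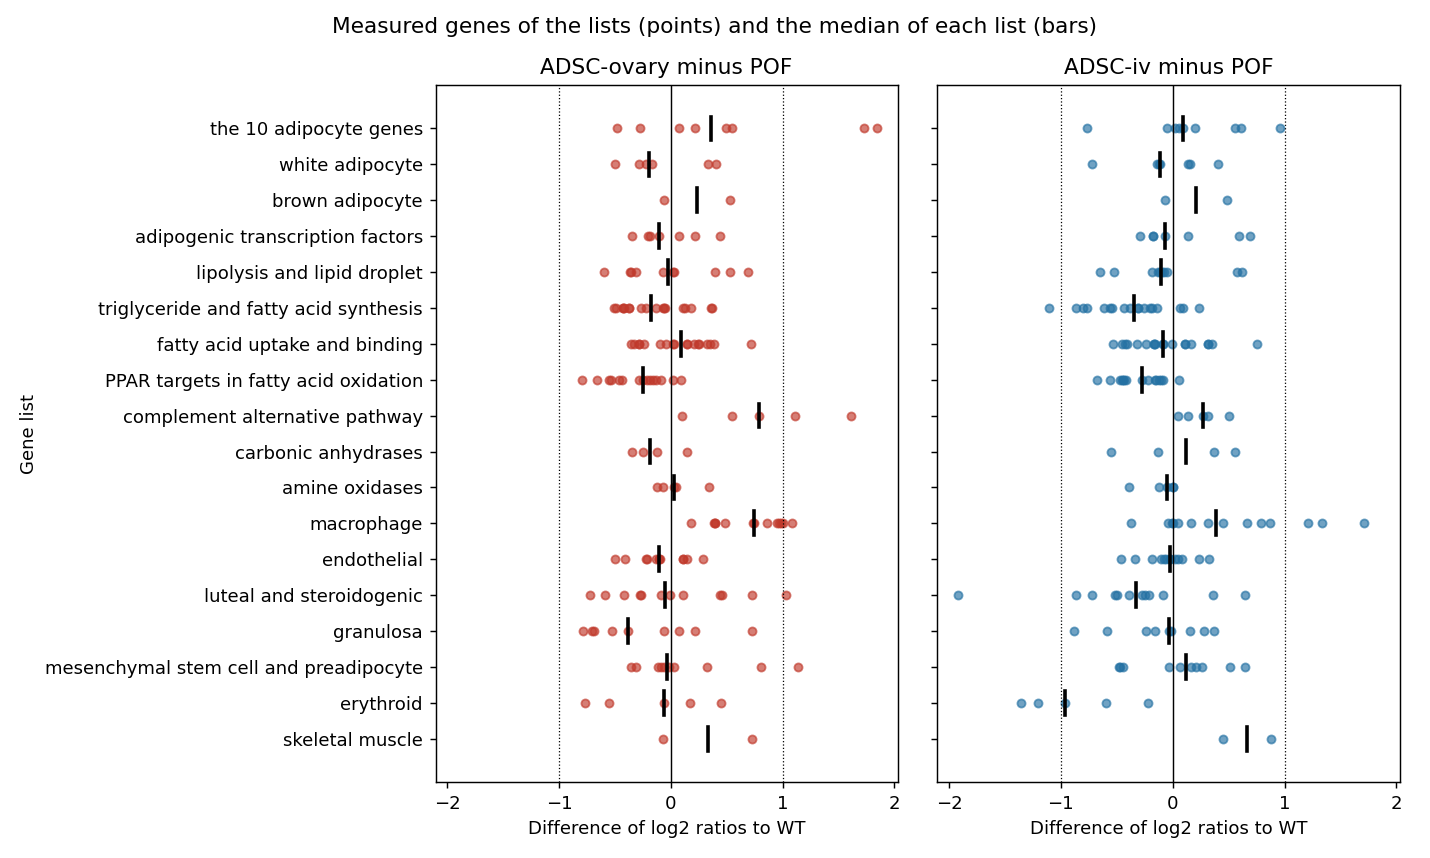
Difference of log2 ratios to WT (x axis) of the measured genes (points) and the list median (black bars) for the 10 adipocyte genes and 17 other lists (y axis), for ADSC-ovary minus POF and ADSC-iv minus POF; 1 array per group, and dotted lines mark 2-fold. In the left panel the median is 0.36 for the 8 measured adipocyte genes, -0.19 for the other white adipocyte genes, 0.79 for the complement pathway and 0.74 for macrophage genes. The 0.36 lies midway between Aoc3 (0.22) and Agpat2 (0.49), and the Agpat2 difference lay in the WT channel.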

How the data were processed

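Per the labels, each array carried Cy5-labelled RNA of 1 treated group and Cy3-labelled RNA of WT ovaries. Per the file headers, the authors' scanner files give spot median intensity and local background (median and SD) per channel, neither subtracted nor normalized. The design text names LuxScan 3.0 as the image software. The authors' deposited log2 ratios, whose normalization is not given in the sources used here, served as an alternative. On spots over 500 units in both channels they correlated with the scanner ratios with r of 0.943 (ADSC-ovary), 0.955 (ADSC-iv) and 0.966 (POF).

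Intensities were corrected with normexp (offset 50) and ratios were normalized within arrays (loess, 1776 control and blank spots given weight 0). This was done with R 4.3.3 and limma 3.58.1. Single channels were scaled between arrays by Aquantile. Before normalization the median log2 ratios were -0.25 (ADSC-ovary), -0.25 (ADSC-iv) and -0.18 (POF). Of 31920 gene probes, 24392 were named and gave 19459 genes, with probes of a gene averaged. Symbols came from RefSeq tables (GRCm38.p6). Later steps used pandas 2.3.3, numpy 2.4.6 and Python 3.11.15. The normalization was checked on simulated data with known ratios. Only bright spots were given changed ratios there, so the check does not cover dim spots such as those of Cfd in WT. With 1 array per group there was no test, and genes past 2-fold were counted. The genes named are the 10, up to 4 genes per list with the largest difference of an ADSC group from POF, Adipoq, Plin1, Lep, Retn and Cidec, and the 5 patterns nearest to Car3. The rule also names those nearest to Cfd, which are left out because its spots were mostly not above background. Plin4 was added after its value was seen. Of the genes under this rule, 1 is not reported here. The members and lists were chosen with earlier results of these data known. A flag column of 100 or -100, whose meaning is not stated, was used only in an alternative. In all, 11 alternatives were tried.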

Additional observations from a re-analysis of the deposited data

Results flagged for a closer look

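Both routes of ADSC delivery were set against the same POF array, and in 2 of the 10 genes the averaged values had opposite signs. Aoc3 was 0.22 in ADSC-ovary minus POF and -0.06 in ADSC-iv minus POF. Angptl4 was -0.27 in ADSC-ovary minus POF and 0.09 in ADSC-iv minus POF. Whether the routes differ was not tested, since each had 1 array. The bright Angptl4 probe alone was negative by both routes (-0.57 in ADSC-ovary and -0.30 in ADSC-iv), and the Aoc3 values lie close to the scatter between probes of a gene (a median SD of 0.15 to 0.16 in these differences).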

How the results depend on the processing

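Each value was recomputed under 11 alternatives, of which the use of probes above background alone was chosen after seeing the data. Of 551 values of single genes, 414 moved by no more than the spread between probes, and 137 moved by more. The sign differed from the main value in 44, of which 16 were in the authors' values, and 0 of these were past 2-fold in the main processing. Pparg was 3.38 in ADSC-iv minus POF, 2.83 in ADSC-ovary minus POF, 1.81 in ADSC-iv against WT and 1.26 in ADSC-ovary against WT in the authors' values, where all 4 were negative here, and -1.57 in POF against WT. There Lpl in ADSC-ovary against WT was 0.61 and Angptl4 in ADSC-ovary minus POF 0.73. The second Pparg probe, not above background in any reading, had authors' ratios of 2.63 in ADSC-ovary, 3.68 in ADSC-iv and -3.27 in POF. The bright Pparg probe had -0.10 in ADSC-ovary, -0.06 in ADSC-iv and 0.12 in POF. The authors' Pparg averages thus rest on the dim probe. The dim Lpl probe had 2.96 in ADSC-ovary, beside -0.39 and -0.74 on the bright ones. Why the dim probes differ was not tested. Car3 and Fabp4 in ADSC-ovary minus POF (1.66 to 2.42 and 1.53 to 2.20) and Cfd, Car3, Fabp4 and Cd36 in ADSC-ovary against WT were past 2-fold under every alternative that measured them. Cfd, Fabp4 and Cd36 have 1 probe each. Alternatives that choose probes, move the filter or drop flagged spots can therefore only keep or remove their values.

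Among the medians, POF against WT was -0.029 after median centring and -0.35 after plain background subtraction. ADSC-iv against WT was 0.19 in the authors' values and 0.0226 with no filter on dim genes. ADSC-ovary against WT was 0.22 after plain subtraction, 1.23 in the authors' values and 0.66 without spots flagged -100. ADSC-iv minus POF was 0.50 in the authors' values, and -0.15 both with the brightest probe of each gene and without the -100 spots. ADSC-ovary minus POF was 0.72 in the authors' values and 0.0576 without the -100 spots, where its count of 2-fold genes was 0 because those spots hold Car3 and Fabp4 on the POF array. Counts of 2-fold genes became 1 in POF against WT (median centring and the authors' values), 2 in ADSC-iv against WT (normexp offset 10, the authors' values and the brightest probe), 1 in ADSC-iv minus POF after plain subtraction and 2 there with offset 10 and the authors' values, and 2 in ADSC-ovary minus ADSC-iv (offset 10 and no filter).

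Signal over background limits Cfd, Lipe and the second probes of Pparg and Angptl4. No paired analysis was possible because each group has 1 array and no test was made.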
